A study of Mus musculus with 16 samples.

Results

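The 10 genes described here are expressed by the endothelium that lines the liver sinusoids, and all probes whose array symbol is *Stab1*, *Stab2*, *Lyve1*, *Clec4g*, *Mrc1*, *Pecam1*, *Kdr*, *Cdh5*, *Flt4* or *Eng* were taken. The genes were picked as a set because *Stab2* and *Lyve1* were known, from earlier results of these data, to differ in opposite directions beside general endothelial genes. They are 10 of 16593 gene symbols on the array and are read by 12 of its 25697 probes, with 2 probes each for *Pecam1* and *Flt4*. Hepatic expression was compared between 8 liver samples of male A/J mice and 8 of male C57BL/6J mice, all fed the high-fat, high-caloric (HFHC) diet, on Illumina Mouse Ref 8 bead arrays with 1 array per sample. The labels write the strains AJ and C57BL6J and give an age of 8 weeks for both, whereas the methods describe a feeding period that follows that age. The methods describe each sample as pooled from 2 mice, and the labels do not mention pooling. P values here cover the spread between the deposited samples, which may be technical in part. No livers on another diet were analysed here, and strain differences therefore hold for the HFHC diet. The question behind the comparison was which hepatic genes differ between these parental strains.

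Liver sinusoidal endothelial cells form a thin wall with open pores and no continuous basement membrane, through which plasma reaches the hepatocytes. They clear large molecules from blood with scavenger receptors, such as the stabilins, and with lectin receptors, and they take up hyaluronan. Other members are found on endothelium in general: *Pecam1* and *Cdh5* encode adhesion molecules of the cell junction, *Kdr* and *Flt4* encode receptors for VEGF proteins, and *Eng* encodes a co-receptor for TGF-beta and BMP ligands. A whole liver sample is mostly hepatocyte RNA, and fewer endothelial cells and less RNA per cell cannot be told apart in it.

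Each probe holds 50 bases. The probes of the genes that differed between strains, and of the *Pecam1* pair, are shown 5′ to 3′ because *Stab2*, *Lyve1* and *Clec4g* were each read by 1 probe only, which leaves no second probe to set against it. A base difference between the strains under such a probe and a difference in mRNA cannot be told apart here. The sequences were decoded from the deposited probe codes, and gene positions are those of RefSeq on GRCm38.p6. No probe on the array shared its full sequence with a member probe, and the *Pecam1* probes shared a run of at most 5 bases with each other. Whether a probe lies in a coding or an untranslated exon was not determined.
*Stab2* (chr10:86841194-87008038): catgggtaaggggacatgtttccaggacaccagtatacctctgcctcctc
*Lyve1* (chr7:110850607-110862953): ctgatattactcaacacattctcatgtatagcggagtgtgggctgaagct
*Clec4g* (chr8:3707066-3720695): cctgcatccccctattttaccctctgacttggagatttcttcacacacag
*Pecam1* probe 1 (chr11:106654213-106715281): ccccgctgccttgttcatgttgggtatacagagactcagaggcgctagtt
*Pecam1* probe 2 (the same gene): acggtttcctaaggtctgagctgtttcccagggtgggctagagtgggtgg

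Values are the deposited log2 signals, which had 1 distribution in every array with a median of 8.01, and a difference is A/J minus C57BL/6J with its standard error (SE). A probe passed at an adjusted P of 0.05 or less in limma, with Benjamini-Hochberg adjustment over the 13000 brightest probes. Of all 13000 probes, 3458 passed (26.6%), 14.6% higher and 12.0% lower in A/J. The first principal component separated the strains, and on the second, samples 1 to 4 lay above samples 5 to 8 in both strains, with A/J sample 4 close to A/J sample 5. Results of members are therefore also given within these subsets. Exocrine pancreas genes were high in A/J samples 4 and 7 and C57BL/6J sample 7, with list means of 10.72, 10.51 and 12.59 against 7.87 to 8.65 in the other samples, and results that change without these samples are marked. The hepatocyte marker list had per-sample means of 13.67 to 13.89 in A/J and 13.61 to 13.77 in C57BL/6J.

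*Stab2* and *Lyve1* differed between the strains in opposite directions. *Stab2* was 1.91-fold higher and *Lyve1* 1.79-fold lower in A/J livers, and in neither gene did any A/J sample overlap any C57BL/6J sample, which held for 8.55% of all tested probes. These were the only members with a difference of 1.5-fold or more, a size that 4.89% of all tested probes reached with an adjusted P that passed, 1.92% higher and 2.98% lower. *Clec4g* was also higher and *Pecam1* probe 1 also lower in A/J, each by less than 1.2-fold. Thus 4 of the 10 member probes bright enough to be tested passed, 2 in each direction, against 26.6% of all tested probes. The *Stab2* and *Lyve1* differences were known when the genes were picked. Neither this count nor their lack of overlap is therefore support for a difference of the set. The remaining 2 member probes, for *Kdr* and for *Flt4*, were too dim. The split of the calls depended on scaling. Centring each array on the hepatocyte markers lowered the median difference of all tested probes to -0.08 from 0.01. With it, 1 member probe (*Stab2*) was higher and 6 were lower (*Lyve1*, *Stab1*, both of *Pecam1*, *Cdh5* and *Flt4* probe 1). Of the 8 hepatocyte markers used, *Alb* (0.38) and *Cps1* (0.28) had the largest strain differences, and the others lay between -0.05 and 0.06. The shift from this centring therefore rests mainly on *Alb* and *Cps1*. *Alb* was dim for this list, at 9.32 in A/J and 8.94 in C57BL/6J.

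**Figure D1:**
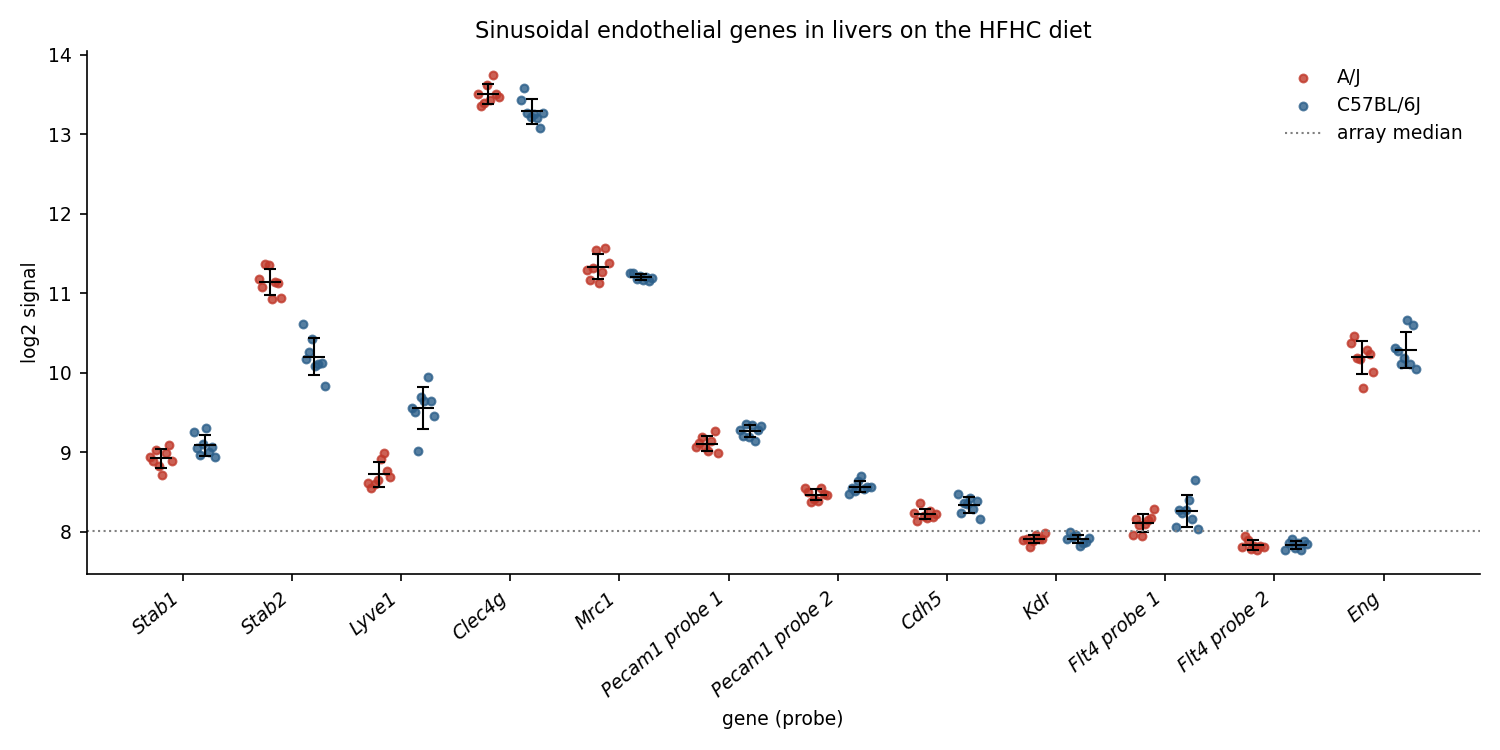
Log2 signal (y axis) of the 12 member probes (x axis) in each liver sample, with 8 A/J samples left and 8 C57BL/6J samples right of each pair. Black bars give the mean ± SD and the dotted line the array median of 8.01. *Stab2* (A/J 10.93 to 11.37, C57BL/6J 9.84 to 10.61) and *Lyve1* (A/J 8.55 to 8.99, C57BL/6J 9.02 to 9.94) show no overlap between strains, and *Kdr* and *Flt4* probe 2 lie below the array median.

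*Stab2* encodes stabilin-2, an endocytic receptor of the sinusoidal endothelium for hyaluronan and other ligands. Its log2 signal ranged between 10.93 and 11.37 with a median of 11.13 in A/J livers, and between 9.84 and 10.61 with a median of 10.15 in C57BL/6J livers. All A/J samples lay above the highest C57BL/6J sample. The means were 11.14 ± 0.165 in A/J and 10.20 ± 0.236 in C57BL/6J (SD, n = 8 each), a difference of 0.94 (SE 0.0951, 95% confidence interval 0.74 to 1.14, limma adjusted P = 6.66e-07).

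Within each strain, samples 1 to 4 had higher *Stab2* signals than samples 5 to 8. The means were 11.25 in A/J samples 1 to 4 and 11.03 in A/J samples 5 to 8, against 10.37 and 10.04 in the same subsets of C57BL/6J. The strain difference was nonetheless close in both subsets. It was 0.88 among samples 1 to 4 (limma adjusted P = 0.000222) and 0.99 among samples 5 to 8 (limma adjusted P = 4.38e-05).

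*Stab1* encodes stabilin-1, the paralog of stabilin-2, which is found on sinusoidal endothelium and on some macrophages. It did not follow *Stab2*. Its signal ranged between 8.72 and 9.09 with a median of 8.92 in A/J and between 8.94 and 9.31 with a median of 9.06 in C57BL/6J, and the strains overlapped. The difference of -0.16 (SE 0.0618, 95% confidence interval -0.29 to -0.03) did not pass after adjustment (limma adjusted P = 0.0597). It passed when any of A/J sample 7, C57BL/6J sample 3 or C57BL/6J sample 8 was left out, with limma adjusted P of 0.0338, 0.0450 and 0.0399. It also passed with hepatocyte-marker centring (-0.26, limma adjusted P = 0.0108), and it was -0.27 with the 5th percentile subtracted (limma adjusted P = 0.0670). The signal of *Stab2* relative to *Stab1* on the same array is unchanged by a shift of the whole array. It still depends on the probes and on the offset of the scale. *Stab2* minus *Stab1* was 2.03 to 2.53 in A/J samples and 0.78 to 1.35 in C57BL/6J samples, with no overlap.

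*Lyve1* encodes a hyaluronan receptor that marks lymphatic vessels and, in liver, the sinusoidal endothelium. Its signal ranged between 8.55 and 8.99 with a median of 8.67 in A/J livers, and between 9.02 and 9.94 with a median of 9.60 in C57BL/6J livers. All A/J samples lay below the lowest C57BL/6J sample, and the gap was narrow: C57BL/6J sample 3 had 9.02, and the others of that strain had 9.45 or more. The means were 8.72 ± 0.158 in A/J and 9.56 ± 0.265 in C57BL/6J (SD, n = 8 each), a difference of -0.84 (SE 0.102, 95% confidence interval -1.05 to -0.62, limma adjusted P = 5.88e-06). Since *Lyve1* lay near the lower end of the scale, subtracting each array's 5th percentile before the log step widened the difference to -1.31. The call held in all settings, with limma adjusted P of 0.00102 or less.

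Within each strain, these subsets differed in *Lyve1* the other way from *Stab2*. Samples 5 to 8 averaged 8.84 and samples 1 to 4 averaged 8.60 in A/J, against 9.67 and 9.45 in C57BL/6J. The strain difference in *Lyve1* was -0.84 among samples 1 to 4 (limma adjusted P = 0.00102) and -0.83 among samples 5 to 8 (limma adjusted P = 0.000704). Neither the *Stab2* nor the *Lyve1* call depended on the subset.

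**Figure D2:**
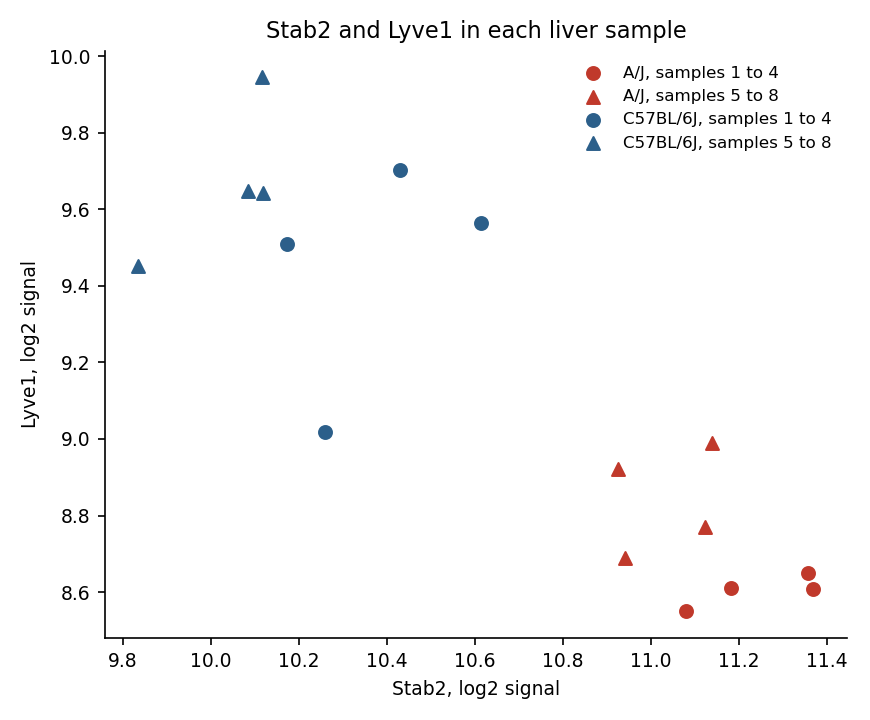
Log2 signal of *Stab2* (x axis) against that of *Lyve1* (y axis) in each of the 16 liver samples, with A/J in red and C57BL/6J in blue, circles for samples 1 to 4 and triangles for samples 5 to 8. The A/J samples lie at high *Stab2* (10.93 or more) and low *Lyve1* (8.99 or less), apart from all C57BL/6J samples.

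The genes were chosen for the opposite movement of *Stab2* and *Lyve1*, and the within-array differences describe it per sample. *Stab2* minus *Lyve1* was 2.00 to 2.76 with a median of 2.44 in A/J samples, and 0.17 to 1.24 with a median of 0.57 in C57BL/6J samples. The strain means of this value differed by 1.77, with no overlap, which is the sum of the separate differences. *Stab2* relative to *Pecam1* probe 1, *Cdh5* and *Eng* differed by 1.10, 1.05 and 1.03 between strains, without overlap. *Lyve1* relative to the same probes differed by -0.68, -0.72 and -0.74, with overlap. These values restate the signals above, carry no test and support nothing further.

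With only the strain means removed, *Stab2* and *Lyve1* were nearly unrelated across samples. The opposite shifts of these genes between samples 1 to 4 and 5 to 8 were left in. Their relation within these subsets was not computed. Over the deviations of all 16 samples from their strain means, Pearson's r was -0.13 and Spearman's rho -0.27, given as a description of arrays that share 1 normalization. The member pairs with the highest values were *Stab2* with *Cdh5* (r = 0.65, rho = 0.54), *Stab1* with *Eng* (r = 0.63, rho = 0.69) and *Stab1* with *Cdh5* (r = 0.63, rho = 0.66). The lowest value joined *Lyve1* and *Pecam1* probe 1 (r = -0.39, rho = -0.36).

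*Clec4g* encodes LSECtin, a C-type lectin of the sinusoidal endothelium in liver. Its signal ranged between 13.35 and 13.75 with a median of 13.48 in A/J livers, and between 13.07 and 13.58 with a median of 13.26 in C57BL/6J livers. The strains overlapped, with A/J samples 4 and 6 above all C57BL/6J samples. The means were 13.50 ± 0.129 in A/J and 13.28 ± 0.155 in C57BL/6J (SD, n = 8 each), a difference of 0.22 (SE 0.0690, limma adjusted P = 0.0263).

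The *Clec4g* call was not stable. It was lost without the samples high in pancreas genes (0.17, limma adjusted P = 0.136) and with each array centred on the hepatocyte markers (0.12, limma adjusted P = 0.282). It was also lost without A/J sample 4, A/J sample 6, C57BL/6J sample 6 or C57BL/6J sample 7, where limma adjusted P was 0.0529, 0.0530, 0.0512 and 0.0519. The direction stayed higher in A/J in all settings. Among samples 1 to 4 the difference was 0.09 (limma adjusted P = 0.582) and among samples 5 to 8 it was 0.34 (limma adjusted P = 0.0150), and the difference between the subsets was not tested.

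*Mrc1* encodes the mannose receptor, which clears glycoproteins and collagen fragments and is shared by sinusoidal endothelium and macrophages. The A/J samples spread between 11.13 and 11.57 with a median of 11.30, and the C57BL/6J samples were tight, between 11.16 and 11.25 with a median of 11.19. The strains overlapped, because A/J sample 2 lay among the C57BL/6J values and A/J sample 5 below them. The means were 11.33 ± 0.157 in A/J and 11.20 ± 0.0366 in C57BL/6J (SD, n = 8 each), and the difference of 0.13 did not pass (limma adjusted P = 0.0967). It passed only without A/J sample 5 (0.16, limma adjusted P = 0.0364). The highest samples were A/J samples 4 and 7, with 11.54 and 11.57, which were also those with high pancreas genes. Without the samples high in pancreas genes the difference was 0.05 (limma adjusted P = 0.462), and the part of these samples in the *Mrc1* values was not tested beyond this.

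*Pecam1* encodes CD31, an adhesion molecule at the junctions between endothelial cells, and both of its probes were lower in A/J on average. Probe 1 ranged between 8.99 and 9.27 with a median of 9.09 in A/J and between 9.15 and 9.36 with a median of 9.29 in C57BL/6J. Of the A/J samples, 6 lay below the lowest C57BL/6J sample. The means were 9.11 ± 0.0931 in A/J and 9.27 ± 0.0780 in C57BL/6J (SD, n = 8 each), a difference of -0.16 (SE 0.0458, limma adjusted P = 0.0146). Probe 2 averaged 8.47 ± 0.0681 in A/J and 8.57 ± 0.0688 in C57BL/6J (SD, n = 8 each), and its difference of -0.10 did not pass (limma adjusted P = 0.0656).

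With the deposited scaling, the probes of *Pecam1* gave the same direction and fell on opposite sides of the threshold. Probe 1 was lower within each subset, with differences of -0.15 and -0.17, without passing there (limma adjusted P = 0.138 and 0.155). Probe 2 passed with hepatocyte-marker centring, where both probes were on the same side of the threshold (probe 2 at -0.20, limma adjusted P = 0.00515), and it was -0.22 with the 5th percentile subtracted (limma adjusted P = 0.0570). It also passed when A/J sample 1, A/J sample 6 or C57BL/6J sample 1 was left out, with limma adjusted P of 0.0464, 0.0476 and 0.0444. The array assigns the *Pecam1* probes to different transcript records of the gene, and which transcripts each reads was not determined. Their deviations from the strain means were hardly related (r = 0.06, rho = 0.08).

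*Cdh5* encodes VE-cadherin, which holds endothelial cells together at adherens junctions. Its signal was 8.14 to 8.36 with a median of 8.22 in A/J and 8.17 to 8.48 with a median of 8.36 in C57BL/6J, and the strains overlapped. The difference of -0.11 (SE 0.0463) did not pass (limma adjusted P = 0.0824). It passed without A/J sample 3 (limma adjusted P = 0.0451) or without C57BL/6J sample 8 (limma adjusted P = 0.0269). It also passed with hepatocyte-marker centring (-0.21, limma adjusted P = 0.0210), and it was -0.30 with the 5th percentile subtracted (limma adjusted P = 0.0627).

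*Kdr* and *Flt4* encode VEGF receptors 2 and 3. The probe for *Kdr* averaged 7.91 ± 0.0529 in A/J and 7.91 ± 0.0543 in C57BL/6J (SD, n = 8 each), below the array median and outside the tested probes. With no filter on dim probes, its difference lay between -0.06 and 0.06 (95% confidence interval). *Kdr* is an established endothelial gene, and a dim probe does not say that its mRNA was absent. *Flt4* probe 1 averaged 8.11 ± 0.114 in A/J and 8.26 ± 0.197 in C57BL/6J (SD, n = 8 each), with a difference of -0.15 (limma adjusted P = 0.167). C57BL/6J sample 7, 1 of those high in pancreas genes, was the highest at 8.65. The difference was -0.10 without it (limma adjusted P = 0.298) and -0.08 without all samples high in pancreas genes (limma adjusted P = 0.453). It was -0.45 with the 5th percentile subtracted (limma adjusted P = 0.142), and it passed with hepatocyte-marker centring (-0.25, limma adjusted P = 0.0196). *Flt4* probe 2 lay below the array median in both strains, at 7.83 ± 0.0600 in A/J and 7.84 ± 0.0518 in C57BL/6J (SD, n = 8 each).

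*Eng* encodes endoglin. It was well above the array median in all samples, between 9.81 and 10.46 with a median of 10.21 in A/J and between 10.04 and 10.66 with a median of 10.22 in C57BL/6J. The strains overlapped over most of their range, and the difference of -0.09 (95% confidence interval -0.31 to 0.12) did not pass (limma adjusted P = 0.572). This interval holds the difference seen for *Pecam1* probe 1, and it holds neither that of *Stab2* nor that of *Lyve1*. The subsets gave opposite signs for *Eng*, at 0.08 among samples 1 to 4 and -0.27 among samples 5 to 8, neither of which passed (limma adjusted P = 0.563 and 0.296).

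**Figure D3:**
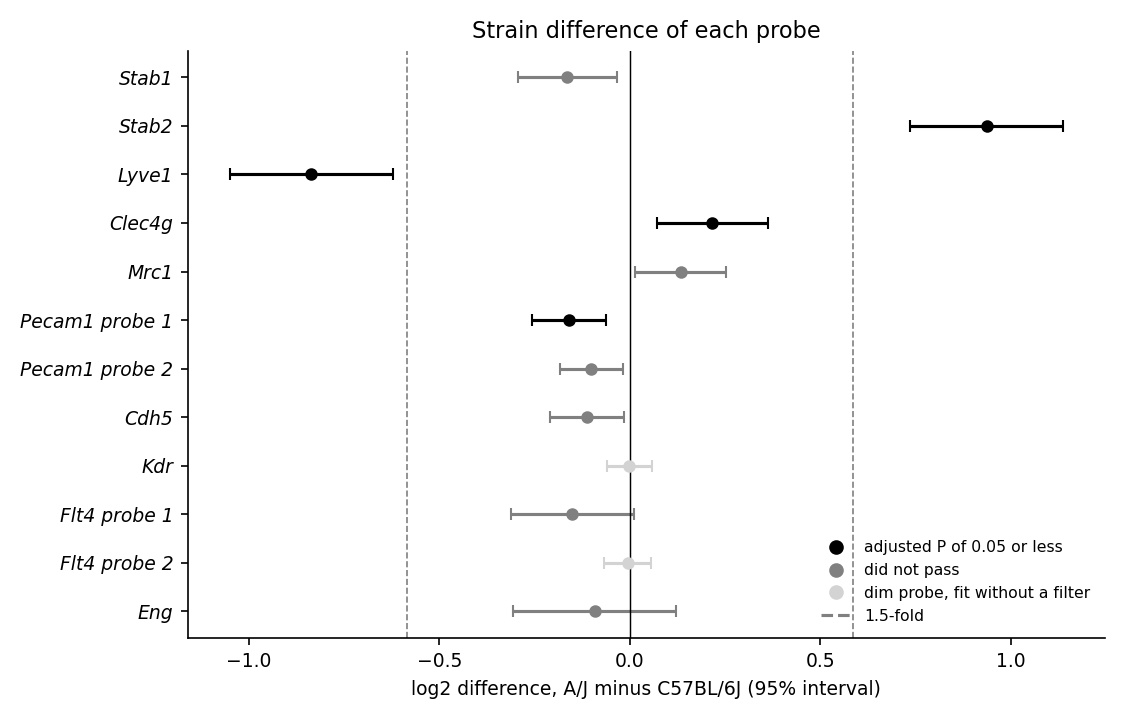
Difference in log2 signal, A/J minus C57BL/6J (x axis), of each member probe (y axis), with 95% confidence intervals over 8 samples per strain and dashed lines at a 1.5-fold change. Black points passed the adjusted P and grey points did not, and light grey points are dim probes fitted without a filter. *Stab2* (0.94) and *Lyve1* (-0.84) lie beyond the dashed lines on opposite sides, and the other members lie between -0.16 and 0.22.

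Other genes of the sinusoidal endothelium passed about as often as tested genes in general. Of 20 listed genes beyond the members, 13 were tested and 4 passed, 3 higher and 1 lower in A/J, with a list median of -0.06 against 0.01 over all 9018 tested genes, of which 28.2% passed, 15.5% higher and 12.7% lower. *Fcgr2b*, an inhibitory Fc receptor that removes immune complexes from blood in these cells, averaged 11.09 ± 0.152 in A/J and 10.54 ± 0.181 in C57BL/6J (SD, n = 8 each). Its difference of 0.55 (limma adjusted P = 4.46e-05) had no overlap between strains, as for 9.23% of all tested genes, and its second probe gave 0.22 (limma adjusted P = 0.000670). *F8*, coagulation factor VIII, which liver endothelium produces, was lower in A/J. Its differences were -0.28 (limma adjusted P = 6.40e-05), -0.23 (limma adjusted P = 0.0727) and -0.17 (limma adjusted P = 0.0453) on its 3 probes. *Ehd3*, an endocytic trafficking protein, was higher by 0.28 (limma adjusted P = 0.00279), and *Aqp1*, a water channel, by 0.19 (limma adjusted P = 0.0465). The other probes of *Aqp1* gave 0.19 (limma adjusted P = 0.0488) and 0.13 (limma adjusted P = 0.145). With hepatocyte-marker centring *Ehd3* and *Aqp1* no longer passed (0.18, limma adjusted P = 0.0969, and 0.09, limma adjusted P = 0.325), and the list had 1 gene higher and 3 lower. Without the samples high in pancreas genes *Aqp1* did not pass (limma adjusted P = 0.102).

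General endothelial genes beyond the members passed no more often than tested genes in general. Of 26 listed genes 19 were tested and 4 passed, all lower in A/J, against 28.2% of all tested genes, with a list median of -0.07. *Egfl7*, a protein secreted by endothelial cells, averaged 10.98 ± 0.0705 in A/J and 11.43 ± 0.189 in C57BL/6J (SD, n = 8 each), a difference of -0.45 (limma adjusted P = 8.55e-05). Its other probes gave -0.09 and -0.000164 and did not pass (limma adjusted P = 0.477 and 0.999). *Rasip1*, which acts in blood vessel formation, was lower, with a difference of -0.29 (limma adjusted P = 0.000635). *Sox7*, an endothelial transcription factor, was lower, with a difference of -0.28 (limma adjusted P = 0.000162), and its other probe also passed, at -0.17 (limma adjusted P = 0.00483). *Nos3*, endothelial nitric oxide synthase, was lower on all 3 of its probes, with differences of -0.17, -0.33 and -0.24. Among those that did not pass, *Ptprb* (0.21), *Tek* (0.14) and *Tie1* (0.07) had positive differences, and *Plvap* (-0.04) and *Vwf* (-0.07) negative ones. On their brightest probes, *Egfl7*, *Rasip1*, *Sox7* and *Nos3* stayed lower in each scaling and without the samples high in pancreas genes. *Rasip1*, *Nos3* and *Sox7* were dim, with A/J means of 8.11, 8.12 and 8.24 near the array median of 8.01.

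Genes around the receptors were compared next, beside 28.2% of all tested genes that passed, 15.5% higher and 12.7% lower. Among VEGF ligands and receptors beyond the members, 7 of 8 were tested and 3 passed, all higher in A/J, with a list median of 0.20. These were *Vegfb* (0.41, limma adjusted P = 0.0199), *Vegfa* (0.37, limma adjusted P = 0.0130) and *Vegfc* (0.20, limma adjusted P = 0.00357), which encode ligands of VEGF receptors. The ligand *Vegfd* did not pass (0.01, limma adjusted P = 0.903), and the ligand *Pgf* was too dim to be tested. The second probe of *Vegfa* gave 0.16 (limma adjusted P = 0.0696). The receptors *Nrp1* (0.36, limma adjusted P = 0.0993), *Flt1* (-0.15, limma adjusted P = 0.224) and *Nrp2* (-0.08, limma adjusted P = 0.137) did not pass. With hepatocyte-marker centring *Vegfa* alone of the ligands passed (0.28, limma adjusted P = 0.0240), and the list had 1 gene higher and 2 lower. Without the samples high in pancreas genes *Vegfb* did not pass (limma adjusted P = 0.0580).

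Of 18 genes of endoglin and BMP signalling, 12 were tested and 5 passed, 2 higher and 3 lower, against 28.2% of all tested genes. *Tgfbr2*, the type II TGF-beta receptor, had the largest difference of this list. It averaged 10.30 ± 0.216 in A/J and 11.06 ± 0.225 in C57BL/6J (SD, n = 8 each), a difference of -0.76 (limma adjusted P = 2.04e-05) with no overlap. *Tgfbr1*, the type I receptor, was lower, with a difference of -0.34 (limma adjusted P = 0.000632), while its dimmer probe gave -0.13 (limma adjusted P = 0.465). *Tgfbr3*, the co-receptor betaglycan, which is related to endoglin, was higher by 0.29 (limma adjusted P = 0.000192). The inhibitory *Smad6* was lower, with a difference of -0.27 (limma adjusted P = 0.00258), and its dimmer probe gave 0.04 (limma adjusted P = 0.474). *Acvrl1*, *Bmpr2* and the ligands *Bmp2*, *Bmp6* and *Bmp10* were too dim to be tested. Of the tested genes, *Gdf2*, *Tgfb1*, *Smad1*, *Smad5*, *Id1*, *Id2* and *Id3* did not pass. The median of the list was 0.02. It was -0.08 with hepatocyte-marker centring.

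Since *Stab2* and *Lyve1* both encode hyaluronan receptors, the genes of hyaluronan synthesis, breakdown and binding were listed too. Of 16 genes 9 were tested and 3 passed, against 28.2% of all tested genes, with a list median of 0.15. *Hyal2*, a hyaluronidase, was higher in A/J, at 12.46 ± 0.138 in A/J and 12.04 ± 0.155 in C57BL/6J (SD, n = 8 each), a difference of 0.42 (limma adjusted P = 0.000186). *Cd44*, the widely expressed hyaluronan receptor, was lower, with a difference of -0.35 (limma adjusted P = 9.42e-05) with no overlap, but its dimmer probe gave -0.03 (limma adjusted P = 0.715). *Itih4*, a plasma protein made by hepatocytes, was higher by 0.23 (limma adjusted P = 0.000598). Its other probes gave 0.26 (limma adjusted P = 0.00222) and 0.12 (limma adjusted P = 0.155). With hepatocyte-marker centring the brightest *Itih4* probe gave 0.14 (limma adjusted P = 0.144). The hyaluronan synthases *Has1*, *Has2* and *Has3* were too dim to be tested.

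Of 17 further scavenger and lectin receptors, 9 were tested and 2 passed, 1 in each direction, against 28.2% of all tested genes. The list median was -0.04. *Scarf1*, a scavenger receptor of endothelial cells, averaged 7.91 ± 0.101 in A/J and 8.66 ± 0.147 in C57BL/6J (SD, n = 8 each). The difference was -0.75 (limma adjusted P = 4.81e-08), and the A/J mean lay below the array median. *Clec2d*, a C-type lectin-related protein, was higher by 0.44 (limma adjusted P = 0.00259). Of 14 junction and angiopoietin genes 9 were tested and 3 passed, all lower. Among all tested genes 12.7% passed lower in A/J. The list median was -0.02. *F11r*, the junctional adhesion molecule JAM-A, which epithelium and endothelium share, averaged 9.37 ± 0.0914 in A/J and 10.26 ± 0.104 in C57BL/6J (SD, n = 8 each), a difference of -0.89 (limma adjusted P = 2.91e-10). *Ctnna1*, alpha-catenin, was lower, with a difference of -0.22 (limma adjusted P = 0.0220), and *Jam2*, with a difference of -0.16 (limma adjusted P = 0.0251). The dimmer probe of *Jam2* gave -0.12 (limma adjusted P = 0.183). *Jam2* did not pass without the samples high in pancreas genes (limma adjusted P = 0.0891).

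**Figure D4:**
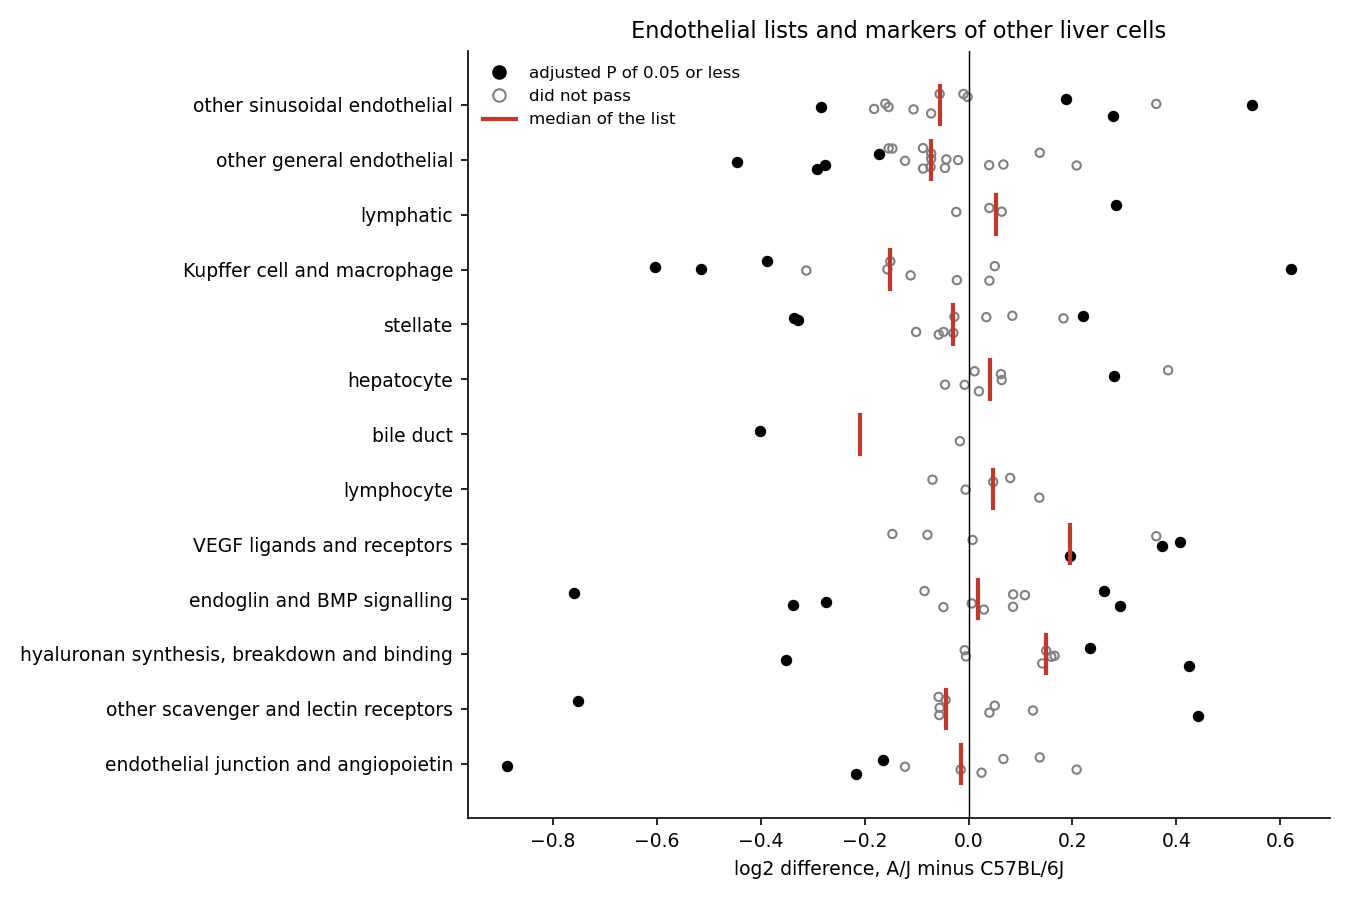
Difference in log2 signal, A/J minus C57BL/6J (x axis), of each tested gene of the endothelial, pathway and cell type lists (y axis). The exocrine pancreas list is not shown. Filled points passed the adjusted P, open points did not, and red bars give the median of each list. Filled points of the other general endothelial genes lie left of 0 (-0.45 to -0.17), and those of the other sinusoidal genes lie on both sides (-0.28 to 0.55).

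Markers of other cells that share these genes were read beside the members, and their part in the results was not tested. Of 14 Kupffer cell and macrophage genes 11 were tested, with 1 higher and 3 lower in A/J. Among all tested genes 15.5% passed higher and 12.7% lower. The list median was -0.15. *Timd4*, a receptor of resident Kupffer cells, was higher by 0.62 (limma adjusted P = 9.01e-05), and *C1qb* (-0.60), *Folr2* (-0.51) and *C1qa* (-0.39) were lower (limma adjusted P = 0.00220, 6.98e-05 and 0.00591). The per-sample mean of the list was 9.78 to 10.37 in A/J and 9.96 to 10.32 in C57BL/6J. The Kupffer cell lectin *Clec4f* was at 10.90 in A/J and 10.86 in C57BL/6J and did not pass (limma adjusted P = 0.852). Of 5 lymphatic genes 4 were tested. *Reln* passed, higher by 0.28 (limma adjusted P = 0.0300), but not without the samples high in pancreas genes (limma adjusted P = 0.0925) nor with hepatocyte-marker centring (0.19, limma adjusted P = 0.167). *Prox1* is shared with hepatocytes, and *Pdpn*, which defines lymphatic vessels, was near the array median in both strains (8.12 in A/J and 8.08 in C57BL/6J). *Reln* was far brighter, at 12.20 in A/J and 11.92 in C57BL/6J, and its cell source was not tested.

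In the stellate list 11 of 14 genes were tested and 3 passed, against 28.2% of all tested genes. *Col3a1* and *Col1a1* were lower (differences of -0.34 and -0.33) and *Pdgfra* was higher by 0.22. *Col3a1* passed narrowly (limma adjusted P = 0.0471) and not without the samples high in pancreas genes (limma adjusted P = 0.118). *Pdgfra* did not pass with hepatocyte-marker centring (0.12, limma adjusted P = 0.200). Of 10 hepatocyte genes 8 were tested, and *Cps1*, of the urea cycle, was higher by 0.28 (limma adjusted P = 0.0157), but did not pass with the centring on this list (0.18, limma adjusted P = 0.145). Of 6 bile duct genes 2 were tested, and *Sox9* was lower, with a difference of -0.40. The A/J means of *Col1a1* (7.91) and *Sox9* (7.92) lay below the array median. No gene passed among 5 tested lymphocyte genes or 9 tested pancreas genes in limma, and 1 and 0 of these had an unadjusted P under 0.05.

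The genes whose signals followed those of the members most closely from sample to sample were chosen by Pearson's r over the deviations of the 16 samples from their strain means, among 9017 other tested genes. For *Stab2* they were *Kansl3* (r = 0.89, rho = 0.84), *Vezf1* (r = 0.88, rho = 0.83) and *Slc35a2* (r = 0.88, rho = 0.87). For *Lyve1* they were *Mest* (r = 0.90, rho = 0.83), *Degs1* (r = 0.85, rho = 0.79) and *Nudt18* (r = 0.83, rho = 0.77). For *Clec4g* they were *Cd14* (r = 0.87, rho = 0.78), *Slc39a7* (r = 0.85, rho = 0.71) and *Echs1* (r = 0.85, rho = 0.65). For *Pecam1* probe 1 they were *Gtpbp1* (r = 0.89, rho = 0.91), *Klhdc1* (r = 0.84, rho = 0.85) and *Taz* (r = 0.82, rho = 0.72). None of these neighbours was a member or a gene of the endothelial lists, and each was picked as the highest of 9017, so the values are a description of these arrays. The neighbours of *Stab2* did not pass between strains, whereas those of *Lyve1* included *Degs1* and *Nudt18*, which were higher in A/J by 0.36 and 0.62 (limma adjusted P = 0.000553 and 3.41e-06), opposite to *Lyve1*.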

How the data were processed

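Liver RNA of 8 A/J and 8 C57BL/6J samples was hybridised to Illumina Mouse Ref 8 arrays. BeadStudio summaries were quantile normalized with lumi by the authors. Versions, background correction and transform (plain log2 or a variance-stabilized form): not given in the sources used here. Deposited log2 values of 25697 probes in 16 columns were used as they stand, so a fold is 2 to the power of a difference on this scale. Once sorted, the columns were equal to within 0.00086, and total signal per array carries no information. The deposited probe codes were decoded to 50 bases, and all check sums matched. Of the probes, 23978 had 1 gene symbol and 1719 none, and 23959 were matched to RefSeq (GRCm38.p6).

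The 13000 probes of the highest mean (the lowest at 8.00) were fitted with limma 3.58.1 (lmFit, eBayes; R 4.3.3; 14 residual and 3.12 prior degrees of freedom), A/J minus C57BL/6J; members below that were read from a fit without a filter. The fit was first tested on simulated data. A list gene stands by its brightest kept probe, and up to 4 passed genes per list were named, those of the largest difference. *Alb*, *Vegfd*, *Pgf*, *Flt1*, *Nrp1*, *Nrp2*, *Ptprb*, *Tek*, *Tie1*, *Plvap*, *Vwf*, *Clec4f*, *Prox1*, *Pdpn* and the *Has* genes were named after their values were seen. The same holds for the endoglin and BMP signalling genes named as too dim or as not passing. The lists are the 14 given in the text. Members, lists, tests and alternatives were chosen with earlier results of these data known. Detection P values were not used here. The number of arrays limits the precision. Sample numbers were checked for pairing and not taken as pairs. Python 3.11.15 (pandas 2.3.3, numpy 2.4.6, matplotlib 3.10.9) was used for annotation and figures.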

Additional observations from a re-analysis of the deposited data

Results flagged for a closer look

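None of the 10 member genes had a sample that stood apart from its strain by Dixon's criterion. *Lyve1* in C57BL/6J sample 3 came near it, at 9.02 against 9.45 or more in the others. Among the list genes named because they passed, a sample stood apart by this criterion in 5 of 66 groups of 8 samples, and chance gives about 1 in 20. This count does not cover the other genes named in the text. *Egfl7* in A/J sample 8 was at 10.83, against 10.95 to 11.04 in the other A/J samples. *Col1a1* in A/J sample 6 was at 8.03, against 7.85 to 7.93. In A/J sample 2, *Vegfb* was at 10.86, against 10.12 to 10.44, and *Tgfbr1* was at 10.62, against 10.84 to 11.03. *Tgfbr3* in C57BL/6J sample 5 was at 9.13, against 9.30 to 9.43 in the other samples of that strain.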

How the results depend on the processing

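*Stab2* (0.84 to 1.07) and *Lyve1* (-1.31 to -0.78) kept their direction and passed the adjusted P in all 30 alternatives. The 2 member probes higher in A/J became 1 with hepatocyte-marker centring, with the offset removed, with the sample number as a replicate block, in samples 1 to 4 only, without the 3 samples high in pancreas genes and with a fold of 1.5, and 1 to 3 when single samples were left out. Where it was 1, *Clec4g* was the probe lost, and it was 3 without A/J sample 5, where *Mrc1* passed. The 2 lower became 6 with hepatocyte-marker centring, 1 in samples 1 to 4 only, in samples 5 to 8 only and with a fold of 1.5, and 2 to 4 when single samples were left out, with 4 only without C57BL/6J sample 8. *Eng* reversed to 0.0822 in samples 1 to 4 only; the cause was not tested. Over all tested probes, the 1902 higher became 756 with hepatocyte-marker centring, 1120 in samples 1 to 4 only and 249 with a fold of 1.5, and the 1556 lower became 2506 and 387 with the centring and the fold. The share of higher calls was 55.0%, against 23.2% with hepatocyte-marker centring. Of 119 tested list genes 34 passed, against 28.2% of all tested genes, and 5 also reached a fold of 1.5. Same-numbered samples of the strains correlated between -0.0147 and 0.539 in their deviations, with the own number highest in 3 of 8. Not every number correlated, so they were not taken as pairs, and a batch shared by some numbers was not tested; with the block 3813 probes passed and *Clec4g* had a limma adjusted P of 0.0571. *Kdr* and *Flt4* probe 2 were too dim for most settings and have a value without a filter only. Near the lower end of the scale, as for *Cdh5*, *Flt4* and *Pecam1* probe 2, differences are compressed, and small ones may go undetected with 8 arrays per strain.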
